A study of Mus musculus with 6 samples.

Results

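Langerhans cells and conventional dendritic cells are the antigen-presenting leukocytes of the skin. The 10 genes described here (Cd207, Epcam, Flt3, Zbtb46, Batf3, Irf4, Irf8, Mgl2, Cd209a and Ly75) are used to tell Langerhans cells and the dendritic cell classes cDC1 and cDC2 apart. They were chosen by name, and a symbol in the reference annotation was found for all 10 among the 43274 genes of the deposited table. The choice was made with the genotype comparison of the same libraries in view. Their genotype differences are therefore given as a description, without p-values, and the number of them that passed the threshold supports nothing by itself.

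The libraries were made from hair follicle bulge stem cells (SCs) of mouse skin at postnatal day 21, sorted by FACS for surface CD34 and high α6 integrin. The 3 control libraries came from mice that carried K5-Cre with 1 floxed Ilk allele (ILK fl/+, labelled ILK +/-), and the 3 ILK-K5 libraries from mice that carried K5-Cre with both alleles floxed (ILK fl/fl, labelled ILK -/-). Both groups thus carried the Cre transgene and at least 1 floxed allele, on a mixed C57Bl6 and 129/Sv background, and controls were littermates. The keratin 5 promoter that drives Cre is active in basal keratinocytes and is not a promoter of leukocytes. Ilk encodes integrin-linked kinase, an adaptor at integrin adhesions. The libraries held 8228019 to 11969072 reads on genes, and 1 read was worth between 0.726 and 1.52 normalized counts. Krt5, Trp63 and the other 3 basal keratinocyte markers were abundant in every library. Between genotypes 0 of these 5 were called in limma, edgeR or DESeq2, and 1 had an unadjusted p under 0.05. Of 5 bulge markers, Cd34, which was part of the sort, was called lower in ILK-K5 (log2 fold change -1.90, adjusted p = 0.024, limma), and the other 4 were not called. The Cd34 call was kept without ILK-K5 library 2 or control library 2 and lost without any other 1 library. Exons of Taf10 and Rrp8 on the opposite strand cover 89.7% of the 2744 exon bases of Ilk. Whether strand was used in counting is not given in the sources used here, so the Ilk count did not check the genotype of the libraries.

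Langerhans cells live among the keratinocytes of the epidermis, descend from macrophage precursors of the embryo and renew themselves in place. Conventional dendritic cells come from the bone marrow under the control of the Flt3 receptor. The cDC1 class depends on the transcription factors Irf8 and Batf3 and presents antigen mainly to CD8 T cells, whereas the cDC2 class depends on Irf4 and in the dermis carries lectins such as Mgl2 and Cd209a. Irf4 and Irf8 bind DNA poorly alone and act with partners, PU.1 (Spi1) at Ets-Irf composite elements and Batf family proteins next to AP-1 elements.

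All 10 genes matched an entry in the RefSeq promoter table (GRCm38.p6), with 11 promoters because Irf8 has a pair of start sites. Within the 250 bases before each start, 5 short motifs were searched on both strands. The motifs were the PU.1 core AGGAAGT, the Ets-Irf composite core GGAANNGAA, the interferon response core GAAANNGAA, the AP-1 element TGANTCA and the Runx element TGTGGT. The first 3 of these can overlap each other. The 4 promoters shown are those with a match whose genes also had all ILK-K5 libraries above all controls. Each is given from 5′ to 3′ on the strand of its gene, with the match in capitals. Cd207 held an AP-1 element 7 bases before its start (chr6:83677858-83678107, minus strand), Ly75 a Runx element at 200 bases (chr2:60383274-60383523, minus strand), Mgl2 a PU.1 core at 250 bases (chr11:70130107-70130356, plus strand) and Cd209a an Ets-Irf composite core at 152 bases (chr8:3748985-3749234, minus strand).
Cd207: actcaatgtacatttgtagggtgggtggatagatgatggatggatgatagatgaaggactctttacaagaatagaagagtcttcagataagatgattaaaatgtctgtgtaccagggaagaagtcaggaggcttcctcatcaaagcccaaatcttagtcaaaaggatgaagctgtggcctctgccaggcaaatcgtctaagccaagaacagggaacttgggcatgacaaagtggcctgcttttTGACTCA
Ly75: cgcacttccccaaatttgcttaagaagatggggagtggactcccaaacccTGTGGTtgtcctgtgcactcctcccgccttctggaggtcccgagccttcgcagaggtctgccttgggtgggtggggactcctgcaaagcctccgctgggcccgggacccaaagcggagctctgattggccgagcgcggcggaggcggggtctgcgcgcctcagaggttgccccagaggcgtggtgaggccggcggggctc
Mgl2: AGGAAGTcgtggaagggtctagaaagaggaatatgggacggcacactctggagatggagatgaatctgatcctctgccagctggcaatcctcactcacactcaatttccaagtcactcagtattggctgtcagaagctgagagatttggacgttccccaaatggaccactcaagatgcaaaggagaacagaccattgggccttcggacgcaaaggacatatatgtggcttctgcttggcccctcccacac
Cd209a: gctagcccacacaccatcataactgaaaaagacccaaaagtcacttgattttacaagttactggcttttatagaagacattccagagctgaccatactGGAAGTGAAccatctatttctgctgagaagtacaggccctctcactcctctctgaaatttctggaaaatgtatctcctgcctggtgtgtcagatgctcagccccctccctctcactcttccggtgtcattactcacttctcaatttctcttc

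The matches were few, and each motif is common among promoters in general. Over the 32851 RefSeq promoters of the same length, 6.75% held the AP-1 element, 7.69% the PU.1 core, 6.99% the Ets-Irf composite core and 14.1% the Runx element. Among the 11 promoters of the described genes, 2 held AP-1 (Cd207, and Zbtb46 at 61 bases before its RefSeq start) and 1 each held the other 3. The Zbtb46 window (chr2:181424389-181424638, minus strand) lies inside the gene as annotated in GENCODE, which begins at 181459426 on that strand. The interferon response core was present in 7.13% of all promoters and in 0 of these 11. These matches describe letters in a window and say nothing on binding.

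Genotypes were compared for 9 of the 10 genes, those whose mean normalized count reached 10. In limma, 4 of these 9 were called higher in ILK-K5 (Irf8, Mgl2, Irf4 and Epcam), against 2.93% of all 16368 genes tested. All 9 log2 fold changes were above 0, and 0 genes were called lower in limma, edgeR or DESeq2, against 0.599% of all genes in limma. All 3 ILK-K5 libraries lay above all 3 control libraries for 7 of the 9, the 4 called genes with Cd207, Ly75 and Cd209a, against 10.9% of all genes. Flt3 and Zbtb46 overlapped. The median log2 fold change was 2.47 over the 9 and 0.0054 over all genes. For 4 of the 9 (Irf8, Mgl2, Cd209a and Ly75) the control mean was itself below 10, so that they passed the filter only through the ILK-K5 libraries. Just inside the calling threshold stood Epcam and just outside it Ly75. In bulk samples a change in the number of cells of a type and a change in RNA per cell cannot be told apart.

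**Figure D1:**
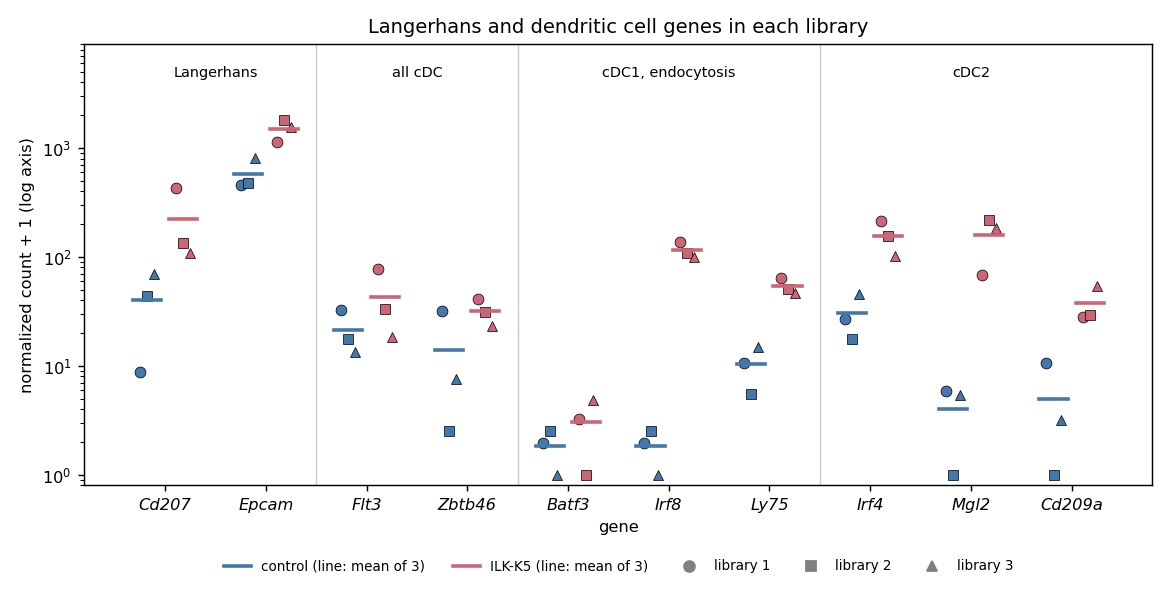
Normalized count plus 1 (log axis) of the 10 genes in the 3 control (blue) and 3 ILK-K5 (red) libraries. Symbols mark library 1, 2 or 3, and horizontal lines mark group means. All ILK-K5 points lie above all control points for Cd207, Epcam, Irf8, Ly75, Irf4, Mgl2 and Cd209a, and the groups overlap for Flt3, Zbtb46 and Batf3.

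Of the genes of Langerhans cells, Cd207 encodes langerin, the lectin of their Birbeck granules. It was counted at 7.72, 42.6 and 68.2 normalized counts in control libraries 1 to 3 and at 425, 133 and 108 in ILK-K5 libraries 1 to 3. The ILK-K5 values were all higher but spread widely, since library 1 held several times the level of the others and control library 1 had the lowest level. Means were 39.5 ± 30.4 and 222 ± 176 (SD, n = 3 each), a log2 fold change of 2.63 (SE 0.80), and the gene was not called. With libraries 2 and 3 alone the log2 fold change was 1.14. Langerin is also carried by a dermal fraction of cDC1 cells.

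Epcam encodes an adhesion molecule of Langerhans cells that epithelial cells share. It had 453.5, 475.9 and 812.7 normalized counts in the controls and 1124, 1806 and 1548 in ILK-K5, so that even the lowest ILK-K5 library was above the highest control. Epcam rose from 581 ± 201 to 1492 ± 344 (log2 fold change 1.39, SE 0.32). This call was held by a small margin. It was kept without control library 3 and lost when any of the other 5 libraries was left out. It was also lost with edgeR, with TMM factors, with FPKM, with a pseudocount of 0.1 and with a minimum mean of 50. In controls, where leukocyte transcripts were few, Epcam already had 453.5 counts or more.

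Flt3 and Zbtb46 mark conventional dendritic cells of either class. Flt3, the receptor of the growth factor Flt3 ligand, was at 31.8, 16.7 and 12.3 normalized counts in controls and at 76.3, 32.4 and 17.5 in ILK-K5. The ILK-K5 library 3 lay near the control mean, so the groups overlapped, with means of 20.3 ± 10.2 and 42.1 ± 30.5 (log2 fold change 0.87, SE 0.67). Zbtb46, a transcription factor of the conventional dendritic cell lineage that endothelium also uses, was at 30.9, 1.52 and 6.53 in controls and at 39.8, 30.1 and 22.4 in ILK-K5. Its overlap came from control library 1, which also had the highest summed level of the endothelial marker list (170 against 77.6 and 63.1 in the other controls, and 84.1 to 94.5 in ILK-K5). The part of endothelial RNA in the Zbtb46 values was not tested. Its log2 fold change was 1.87 (SE 0.91).

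Among genes tied to cDC1, Irf8 was nearly undetected in controls. It had 0.965, 1.52 and 0 normalized counts there, from 2 reads in all, and 137, 108 and 99.4 in ILK-K5, from 362 reads. The ILK-K5 libraries lay within a narrow range far above every control. The ratio of counts was 174 with a 95% exact interval of 47.7 to 1440 for counting error, and the fitted log2 fold change of 6.07 (SE 0.65) depends on the pseudocount. Irf8 was called in the fit with all libraries and in each of the 6 fits that left out a library. Monocytes, macrophages and B cells also express this factor.

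Batf3, the AP-1 partner that cDC1 cells need, stayed at the level of single reads in both genotypes. It was counted at 0.965, 1.52 and 0 normalized counts in controls and at 2.28, 0 and 3.9 in ILK-K5, from 2 and 6 reads in all. The ratio of 2.88 has an interval of 0.515 to 29.2, so a difference was not detectable at this depth. It was too low to be tested.

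Ly75 encodes DEC-205, an endocytic receptor of cDC1 and Langerhans cells that keratinocytes and thymic epithelium can also express. Its normalized counts were 9.65, 4.56 and 13.8 in controls and 62.6, 49.4 and 45.8 in ILK-K5. The groups were far apart, with means of 9.33 ± 4.62 and 52.6 ± 8.87. The log2 fold change of 2.47 (SE 0.58) nevertheless missed the threshold. Of its exon bases, 3.61% are shared with Gm13571 on the opposite strand.

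Among genes of cDC2, Irf4 encodes the factor that these cells need to migrate and to drive certain T helper responses. It had 26.0, 16.7 and 45.0 normalized counts in controls and 213, 153.5 and 100.3 in ILK-K5, with no overlap. It rose from 29.3 ± 14.4 to 156 ± 56.3 (log2 fold change 2.42, SE 0.49). This call too was kept only without control library 3 and was lost when any of the other 5 libraries was left out.

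Mgl2 (CD301b), a galactose-type lectin of dermal cDC2 cells that some skin macrophages also carry, changed most after Irf8. It was counted at 4.82, 0 and 4.35 normalized counts in controls and at 67.2, 217 and 185 in ILK-K5. Here ILK-K5 library 1 was the lowest of its group, the reverse of Cd207. Mgl2 rose from 3.06 ± 2.66 to 156 ± 78.8 (log2 fold change 5.48, SE 0.83). The call was lost without ILK-K5 library 2 (log2 fold change 5.16) and kept without any other single library, with log2 fold changes from 4.65 to 5.999. With libraries 2 and 3 alone the log2 fold changes of the 4 called genes were 6.04 for Irf8, 6.44 for Mgl2, 2.13 for Irf4 and 1.43 for Epcam, and of these Irf4 and Epcam were not called.

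Cd209a, the mouse C-type lectin closest in use to human DC-SIGN on dermal cDC2 and monocyte-derived cells, was at 9.65, 0 and 2.18 normalized counts in controls and at 27.3, 28.5 and 53.6 in ILK-K5. All ILK-K5 libraries were higher, from 13 reads in the controls against 116. Means were 3.94 ± 5.06 and 36.5 ± 14.8 and the log2 fold change was 3.47 (SE 0.94), which was not called. Mgl2 and Clec10a, and the genes of the Cd209 family, are near copies of each other, so their counts are uncertain where reads could be split between them.

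Levels can be compared between genes only per length, for which the FPKM table was used. In ILK-K5, Epcam was highest with 75.0 ± 17.3 FPKM, followed by Cd207 with 14.9 ± 11.8, Mgl2 with 7.66 ± 3.86, Irf4 with 3.38 ± 1.23, Cd209a with 2.52 ± 1.02 and Irf8 with 1.67 ± 0.28. Below 1 FPKM came Ly75, Flt3, Zbtb46 and Batf3, at 0.781, 0.556, 0.371 and 0.132. Neighbours in this order overlapped in their 3 libraries apart from Epcam and Cd207, Irf8 and Ly75, and Zbtb46 and Batf3. In controls Epcam was again highest with 29.2 ± 10.1 FPKM and stood apart from all others. Cd207 followed with 2.65 ± 2.04, and each gene further down overlapped with its neighbours, from Irf4 at 0.636 through Cd209a, Flt3, Zbtb46, Mgl2, Ly75 and Batf3 to Irf8 at 0.012. Irf8 was thus the lowest of the 10 genes in controls and stood above Ly75, Flt3 and Zbtb46 in ILK-K5, and Mgl2 stood below all but Ly75, Batf3 and Irf8 in controls and below only Epcam and Cd207 in ILK-K5.

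Ptprc (CD45) is carried by all leukocytes and was used as a common denominator, in reads of a gene per 100 reads of Ptprc. ILK-K5 libraries held 1257, 1441 and 1037 reads of Ptprc. Controls held only 29, 15 and 70, so their ratios rest on few reads. Within ILK-K5 the genes fell into different patterns, although these 3 libraries share 1 genotype. These patterns depend on the denominator, since general leukocyte genes differed among the same libraries. On the log2 scale, ILK-K5 library 1 minus the mean of libraries 2 and 3 was 0.43 for Ptprc. It was -1.79 for Laptm5, -1.24 for Coro1a, -0.11 for Cd52 and 0.19 for Cd53.

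Irf8 and Ly75 followed Ptprc closely. Irf8 stood at 9.55, 9.71 and 9.84 per 100 Ptprc reads, a range of 1.03-fold, and Ly75 at 4.38, 4.44 and 4.53, a range of 1.04-fold. Their 95% exact intervals for counting error overlapped fully. Zbtb46, at 2.78, 2.71 and 2.22, also stayed within its counting intervals.

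Cd207 and Flt3 were highest in ILK-K5 library 1. Cd207 had 29.7 reads per 100 Ptprc reads there (interval 26.4 to 33.3), against 11.9 (10.1 to 13.99) and 10.7 (8.72 to 13.0) in libraries 2 and 3. Flt3 had 5.33 (4.11 to 6.82) against 2.92 and 1.74 (1.03 to 2.76). Mgl2 showed the opposite order, with 4.69 (3.55 to 6.10) in library 1 and 19.5 (17.1 to 22.2) and 18.3 (15.6 to 21.4) in libraries 2 and 3. These differences were larger than the counting error of the libraries, but with 1 library each they have no replicate check. Cd209a was highest in library 3 with 5.30 (3.97 to 6.96), against 1.91 and 2.57, and Irf4 was lowest there with 9.93 (8.03 to 12.2), against 14.9 and 13.8.

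**Figure D2:**
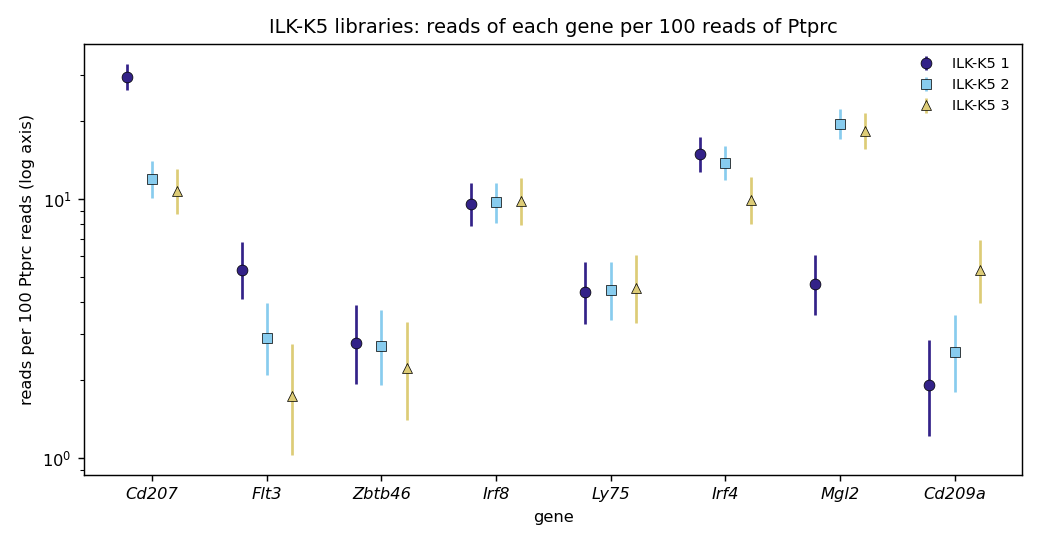
Reads of 8 genes per 100 reads of Ptprc (log axis) in ILK-K5 libraries 1, 2 and 3, with 95% exact intervals that cover counting error only. Relative to Ptprc, Irf8 and Ly75 are level across the libraries, Cd207 and Flt3 are highest in library 1 and Mgl2 is lowest there. The patterns depend on the choice of Ptprc as denominator.

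Relative to Ptprc, 5 of the 10 genes (Epcam, Irf4, Ly75, Flt3 and Zbtb46) were lower in every ILK-K5 library than in every control. Since Ptprc itself rose by a log2 fold change of 5.15 (SE 0.36), 95.8% of the 16367 other genes tested were lower in the same way, and nothing is read from the count. Epcam stood at 1600 to 2087 per 100 Ptprc reads in controls and at 78.5 to 162.5 in ILK-K5. Irf4 stood at 73.3 to 93.1 against 9.93 to 14.9, and Ly75 at 20.0 to 34.5 against 4.38 to 4.53. Irf8 alone was higher in every ILK-K5 library, at 9.55 to 9.84 against 0 to 6.67 in controls, where it had 2 reads in all, against 0.446% of the other genes tested. Mgl2 overlapped, with 0 to 17.2 in controls and 4.69 to 19.5 in ILK-K5, and so did Cd207, with 27.6 to 187 and 10.7 to 29.7. The log2 fold change of Ptprc was larger than that of each of the 9 tested genes other than Irf8 and Mgl2.

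The nearest profiles over the 6 libraries, by the root mean square difference of centred log2 values, were sought among all genes tested. Irf8 was closest to Lilra6 (0.21), Gm15448 (0.42) and the integrin gene Itgax (0.43). Lilra6 and Gm15448 belong to the leukocyte immunoglobulin-like receptors. Mgl2 was closest to Olfml3 (0.40), BC028528 (0.48) and Gngt2 (0.48), and Cd209a to Gm8979 (0.42). Cd207 had St8sia6 (0.31) nearest, and the others of its 3 nearest were Tm4sf1 and Gm6166. Epcam was nearest to Lrp1 (0.093), Flt3 to Ada (0.21), Zbtb46 to Adam12 (0.25) and Ly75 to Slc41a2 (0.17). Irf4 had Naip5 (0.22) and then Ly75 (0.22) nearest, which was the only 1 of the 10 genes found among the 3 nearest of another. Each profile includes the genotype difference and the same 6 libraries.

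Companion genes of the same cells were listed by name, 54 in 6 lists, of which 53 had a symbol in the table and 45 could be tested. Of the 45, 16 were called higher and 2 lower in ILK-K5, against 2.93% and 0.599% of all 16368 genes tested, and 27 were not called. The median log2 fold change was 1.65, against 0.0054 over all genes. Several called companions had control means below 10, such as Cd80 (0.965), Spi1 (5.73), Ikzf1 (6.76) and Ccl17 (6.81). They passed the filter only through the ILK-K5 libraries, so the count called and the share over all genes are not on equal terms. Of the 18 calls, 9 held in each of the 6 fits that left out a library, those of Csf1r, Itgam, Clec4a2, Cd83, Csf2ra, Csf2rb, Zeb2, Ikzf1 and Itgax. All adjusted p-values below are from limma over all genes tested. The lists too were chosen with earlier results of these data known, so these p-values and counts are a description and support nothing by themselves.

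Among 7 tested companions of Langerhans cells, 1 rose and 1 fell. Csf1r, the receptor through which Il34 and Csf1 maintain Langerhans cells and macrophages, rose from 39.4 ± 22.2 to 2310 ± 482 normalized counts (log2 fold change 6.01, SE 0.47, adjusted p = 2.98e-04). Cd24a, which Langerhans cells share with many keratinocytes, had 15820, 30700 and 9186 normalized counts in controls and 4728, 2300 and 4237 in ILK-K5. It fell by 2.199 (log2 fold change, adjusted p = 0.0367). The call was kept only without control library 3. Il34, the keratinocyte-made ligand of Csf1r, had 11.6, 18.2 and 61.7 counts in controls and 5.69, 11.6 and 9.74 in ILK-K5 and was not called (adjusted p = 0.577). Tgfb1, needed for Langerhans cells to persist, was not called either (log2 fold change 2.18, adjusted p = 0.0740). Runx3, Axl and Cdh1 (E-cadherin, which anchors Langerhans cells to keratinocytes) likewise did not pass. The chemokine receptor gene Ccr6 had 0 reads in the controls and 16 in ILK-K5, at least 5.12-fold higher against a floor of 3 reads over the group.

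Of 8 tested cDC1 companions, 1 was called. Itgae (CD103), carried by dermal cDC1 cells and by epidermal T cells, had 6.75, 10.6 and 14.5 normalized counts in controls and 77.4, 71.0 and 87.7 in ILK-K5 (log2 fold change 2.83, SE 0.50, adjusted p = 0.0147). That call was lost without control library 2 or without any 1 of the ILK-K5 libraries. The receptors Xcr1 and Clec9a, which define the class, were low in both genotypes. Xcr1 had 4.82, 7.60 and 7.98 counts in controls and 41.0, 29.3 and 47.7 in ILK-K5, all higher but not called (adjusted p = 0.0628). Clec9a had 0.965, 3.04 and 2.18 against 31.9, 7.71 and 14.6 (adjusted p = 0.22). Cadm1 and Tlr3, which epithelial cells also express, were far more abundant than these, with log2 fold changes of -0.58 and 0.0013.

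Of 5 tested cDC2 companions, 3 rose, and all 3 are also carried by macrophages and monocytes. Itgam (CD11b) rose from 144 ± 85.4 to 1891 ± 173 (log2 fold change 3.97, SE 0.51, adjusted p = 0.00263). Of its exon bases, 68.7% are shared with Gm49368 on the same strand, so its count is uncertain. Clec4a2, an inhibitory lectin receptor, rose by a log2 fold change of 3.70 (SE 0.46, adjusted p = 0.00232). Sirpa, the receptor for CD47, rose by 1.49 (SE 0.27, adjusted p = 0.0167), and that call was lost without ILK-K5 library 2, ILK-K5 library 3 or control library 2. Klf4 and Notch2, both also keratinocyte genes, were not called. Clec10a, the near copy of Mgl2, stayed at 1.52 to 3.63 counts in controls and 4.87 to 7.97 in ILK-K5. Clec4a4, a lectin receptor of cDC2 cells, had 0 reads in controls and 23 in ILK-K5, at least 7.36-fold higher.

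Genes of maturing and migrating dendritic cells were split. Of 12 tested, 5 rose, those of the surface molecules Cd83, Cd80, Cd86 and Cd274 (PD-L1) and of the chemokine Ccl17. Cd83 had 0, 10.6 and 20.3 normalized counts in controls and 470, 342 and 341 in ILK-K5 (log2 fold change 5.92, SE 0.98, adjusted p = 0.0105). Ccl17, a ligand of Ccr4 on T cells, had 6.75, 13.7 and 0 against 139, 483 and 305 (log2 fold change 5.82, SE 0.95, adjusted p = 0.00972). Both were far above controls in every library, although the Ccl17 call was lost without ILK-K5 library 2. Cd80 had 3 reads in controls and 154 in ILK-K5, a count ratio of 49.3 with an interval of 16.5 to 242 (adjusted p = 0.01155), and its call was lost without any 1 of the ILK-K5 libraries. Cd86 (log2 fold change 3.70, adjusted p = 0.0181) lost its call without control library 2 or any 1 of the ILK-K5 libraries, and Cd274 (2.29, adjusted p = 0.0091) without ILK-K5 library 3. Ccr7, the receptor that guides dendritic cells to lymph nodes, was below the filter, with 0, 0 and 1.45 counts in controls and 3.42, 3.86 and 4.87 in ILK-K5. Fscn1 and Ccl22 were higher in each ILK-K5 library but not called (adjusted p = 0.0914 and 0.0638), and Relb, Cacnb3, Socs2, Il4i1 and Cd40 did not pass. The count of Il4i1 is uncertain, since 86.3% of its exon bases are shared, mainly with Tbc1d17 on the opposite strand.

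Of 9 tested genes of dendritic cell development, 6 rose and 1 fell. Itgax (CD11c), the integrin most used to identify dendritic cells, had 7.72, 13.7 and 10.9 normalized counts in controls and 1043, 770.5 and 766.6 in ILK-K5 (log2 fold change 6.21, SE 0.36, adjusted p = 7.8e-05). The lymphoid and myeloid factor gene Ikzf1 rose by 5.72 (SE 0.93, adjusted p = 0.00984). Csf2rb, a signalling chain of the GM-CSF receptor, rose by 5.55 (SE 0.46, adjusted p = 3.63e-04), and its partner Csf2ra by 3.33 (adjusted p = 0.00223). Spi1 (PU.1), the partner of Irf4 and Irf8, rose from 5.73 ± 1.73 to 97.8 ± 37.3 (log2 fold change 3.85, adjusted p = 0.00432), a call that was lost without ILK-K5 library 2. Zeb2, a factor of cDC2 cells and macrophages, rose by 2.98 (adjusted p = 0.0072). Id2, a regulator that Langerhans cells and cDC1 cells need and that keratinocytes also express, had 2677, 1484 and 977 counts in controls and 401, 476 and 612 in ILK-K5. Its log2 fold change was -1.68 (adjusted p = 0.0444), a fall whose call was kept only without control library 3. Of the 4 tested genes of plasmacytoid dendritic cells, 0 were called in limma, edgeR or DESeq2 and 1 had an unadjusted p under 0.05, and Siglech, which defines them, had at most 9.11 counts in a library.

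**Figure D3:**
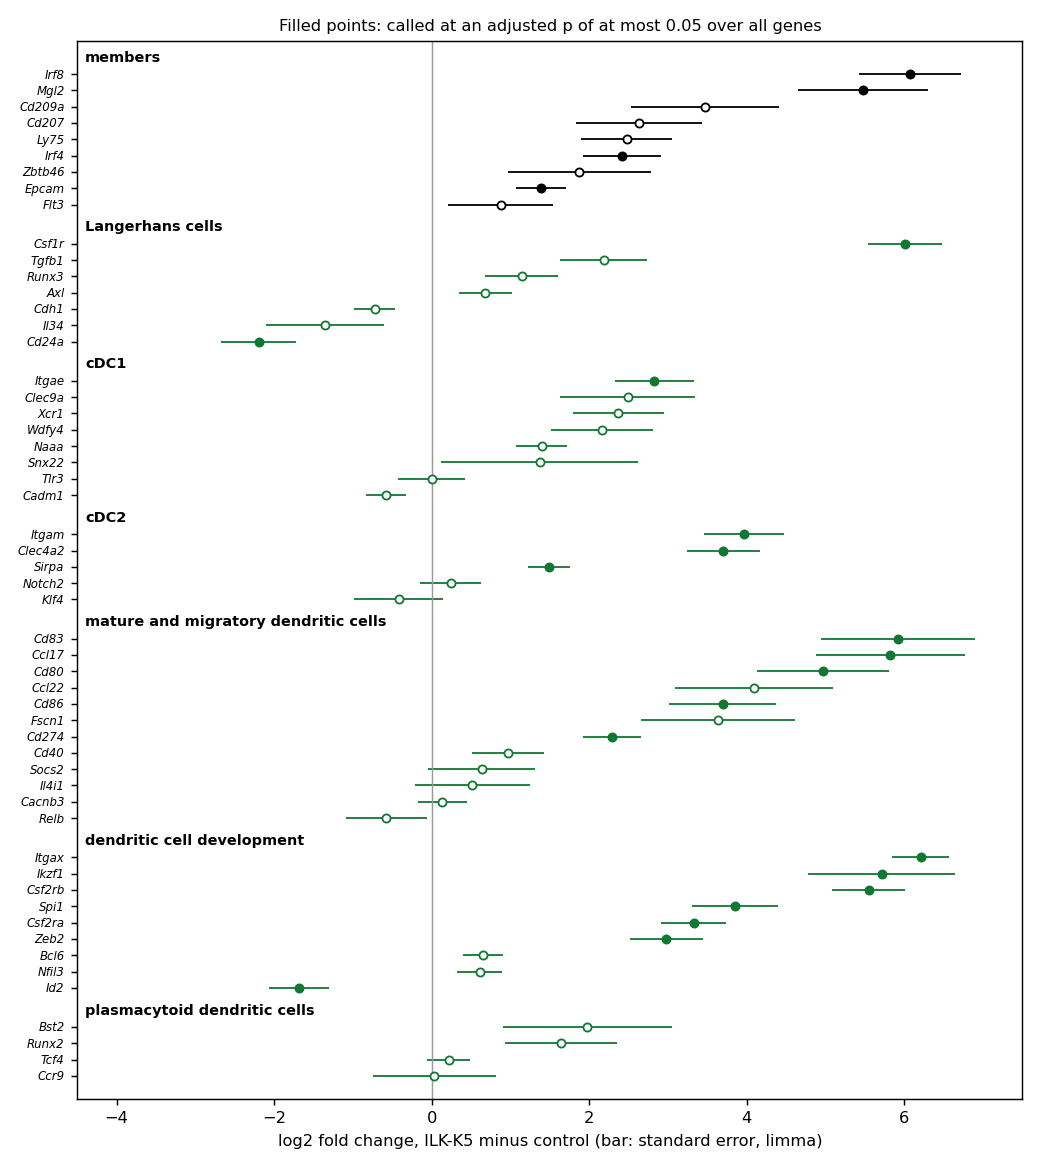
Log2 fold change (ILK-K5 minus control) with its standard error for the 9 tested genes (black) and the 45 tested companions (green) in 6 lists. Filled points passed an adjusted p of 0.05 over all genes. Most filled companions lie in the lists of development and maturation, Cd24a and Id2 lie below 0, and no plasmacytoid gene is filled.

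Relatives of the described genes were counted in the same way. Of 7 tested Irf genes other than Irf4 and Irf8, 0 were called in limma, edgeR or DESeq2 and 3 had an unadjusted p under 0.05, with a median log2 fold change of 0.75. Irf7 had the largest (1.68, SE 0.57, adjusted p = 0.212). Batf, which can stand in for Batf3 in cDC1 cells, had 0 reads in controls and 9.11, 19.3 and 6.82 normalized counts in ILK-K5, at least 12.8-fold higher against the floor. Within the Cd209 family, Cd209d and Cd209e had 0 reads in controls and 60 and 45 reads in ILK-K5, at least 19.2-fold and 14.4-fold higher. Both were lowest in ILK-K5 library 1, with 3.42 normalized counts each, against 18.5 and 13.1 in library 2 and 32.1 and 24.4 in library 3. Cd209c was similar in both genotypes (log2 fold change -0.21, SE 0.65), and Cd209f and Cd209g had counts mainly in control library 1 (32.8 and 13.5).

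Markers of other leukocytes moved with the described genes. The summed level of 10 macrophage markers was 551 to 1032 normalized counts in controls and 7045 to 11220 in ILK-K5. Of the 9 tested, 8 were called higher, against 2.93% of all genes tested. The exceptions were Mertk, which was not called (log2 fold change -0.0088), and Cd163, which was too low to test. Of the 8 called, Mrc1, Fcgr1, C1qa, C1qb and C1qc had control means below 10. They passed the filter only through the ILK-K5 libraries. Fcgr1 (CD64), which separates macrophages from conventional dendritic cells, had 0 reads in controls and 307 in ILK-K5, at least 98.2-fold higher. All 5 general leukocyte markers were called higher, with sums of 39.6 to 107 against 2877 to 3734. Coro1a, Cd52 and Cd53 also had control means below 10. Of these 2 lists, the calls of Coro1a (without ILK-K5 library 2, ILK-K5 library 3 or control library 2) and C1qa (without ILK-K5 library 2) depended on single libraries. Macrophages also express Irf8, Csf1r, Itgax, Itgam, Spi1, Sirpa, Zeb2 and, in part, Mgl2, and the part of macrophage RNA in these values was not tested.

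Lists of the other cell types were mixed. T cell markers summed to 107 to 125 in controls and 179 to 235 in ILK-K5, with 1 of 4 tested called (Cd2, lost without any 1 of the ILK-K5 libraries). The other log2 fold changes were 2.48 for Cd3e, 2.31 for Cd3g and -0.47 for Cd3d, and Trdc had no match by symbol. Of the neutrophil list, S100a8 and S100a9 were called higher, S100a8 not without control library 2 or any 1 of the ILK-K5 libraries, while Ly6g and Retnlg had 0 reads in ILK-K5. Mast cell markers summed to 0.965 to 13.7 in controls and 20.1 to 22.4 in ILK-K5. Of these, Cpa3 and Tpsb2 had 0 reads in all 6 libraries, and Mcpt4 and Ms4a2 had 0 in ILK-K5. The only gene tested, Kit, was higher in all ILK-K5 libraries (log2 fold change 3.81). It was called in DESeq2 but not in limma or edgeR, and had an unadjusted p under 0.05. B cell markers summed to 21.3 to 65.6 in controls and 10.7 to 25.1 in ILK-K5, with 0 of 1 tested called in limma, edgeR or DESeq2 and 0 at an unadjusted p under 0.05. Fibroblast markers summed to 703 to 779 and 1532 to 2493, with 1 of 4 called (Col3a1), and of the endothelial (2 tested) and melanocyte (4 tested) markers 0 were called in limma or edgeR, 1 of each in DESeq2 and 1 of each at an unadjusted p under 0.05.

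**Figure D4:**
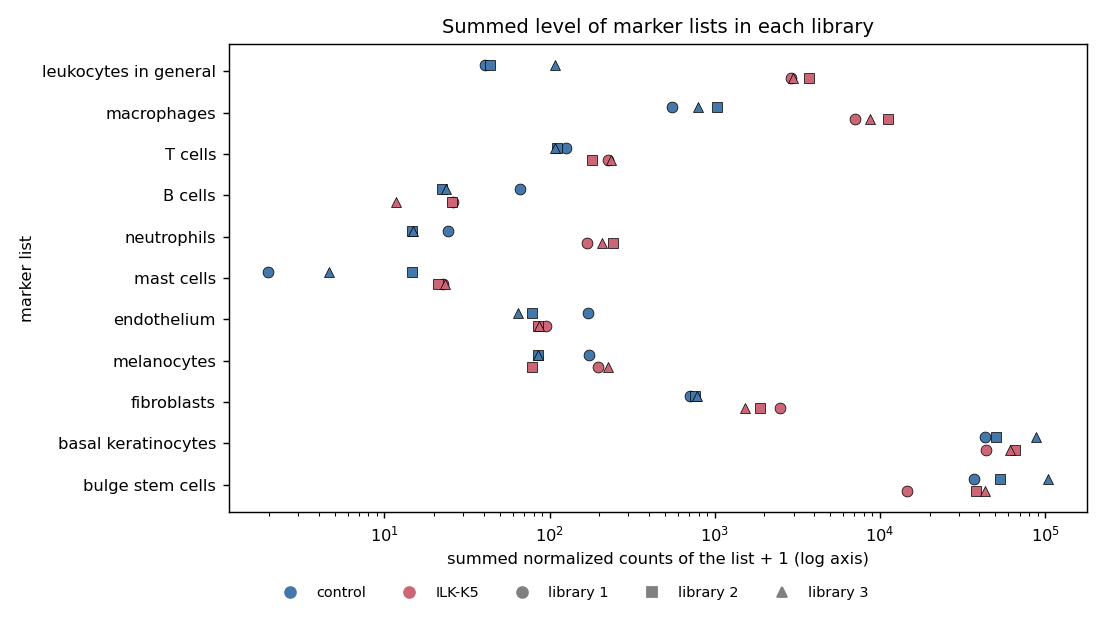
Summed normalized counts plus 1 (log axis) of 11 marker lists in the control (blue) and ILK-K5 (red) libraries. The general leukocyte, macrophage and neutrophil sums are higher in all ILK-K5 libraries with wide gaps, and the sums of basal keratinocyte, endothelial and melanocyte markers overlap. In ILK-K5 the neutrophil sum comes from S100a8, S100a9 and Csf3r alone, since Ly6g and Retnlg had 0 reads there.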

How the data were processed

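RNA of FACS-sorted bulge SCs was amplified as cDNA (Ovation RNA-Seq V2), made into Nextera XT libraries and sequenced in pairs. The authors removed adapters and ribosomal RNA reads and mapped the rest to GRCm38. The submitters' processing notes name TopHat2 2.0.14, Bowtie2 2.2.4 and DESeq2 1.6.3. The counting program is not given in the sources used here. The deposited signal values are counts per gene that the authors divided by DESeq2 size factors, and the deposited FPKM values are the same counts per length. All values (100%, within 0.01 of a whole read) gave whole reads, which were recovered for count tests. The deposited tables of the authors' own comparison (means, log2 fold changes, standard errors, test statistics, p-values) were not used.

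Of 43274 genes, 42107 (97.3%) had a symbol in GENCODE M21. Genotypes were compared with limma 3.58.1 in R 4.3.3 on log2(normalized count + 1), with a trend and no covariate, for 16368 genes with a mean of at least 10. The calling threshold was a Benjamini-Hochberg adjusted p of 0.05 or less. A fold change on this scale understates the change of low genes. With 3 against 3 libraries an exact permutation test cannot go below p = 0.1. Nothing in the labels says whether libraries of 1 group came from separate mice, and p-values measure the spread between these libraries. Intervals (exact, 95%) and floors of 3 reads cover counting error only. Alternatives were TMM factors, edgeR 4.0.16 and DESeq2 1.42.0 on recovered reads, FPKM, other pseudocounts and filters, a replicate block and leaving out libraries. edgeR called 422 genes higher and 87 lower, DESeq2 772 and 280. The described genes and all lists were chosen with earlier results of these data known. Named were all 10 genes, called companions first (at most 4 per list by size of change, and any other companion or relative with its values), and the 3 nearest profiles. Lists of other cells were given by sums, and the genes named from them were picked with their values in view. So were Ilk, Taf10, Rrp8, Gm13571, Gm49368 and Tbc1d17, and called companions beyond 4 per list. The method was tested on simulated data drawn from means pooled over the genotypes, with no difference of replicate 1 from the others. That setting differs from these data, and no result here rests on it.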

Additional observations from a re-analysis of the deposited data

How the results depend on the processing

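Over 17 alternatives, 149 fold changes of the described genes were refitted. The direction was kept in all of them (0 reversed), and 120 stayed on the same side of the threshold. The replicate block, the term for replicate 1 and the other filters return the fold change of the main fit, so no direction could reverse there. Leaving out a library cannot reverse a gene whose groups do not overlap. The kept directions are therefore no check for most of these genes. Calls were lost 18 times, 11 for Epcam, 6 for Irf4 and 1 for Mgl2, and gained 11 times, 5 each for Cd209a and Ly75 and 1 for Cd207. With DESeq2 on recovered reads, 772 genes were higher, 280 lower and 7 of the described genes called. Leaving out 1 library gave 222 to 559 higher genes, 32 to 98 lower genes, 1 to 5 described genes and 10 to 21 companions called. The lowest counts came without ILK-K5 library 2. The column names carry a different number for each replicate, shared by its control and its ILK-K5 library. The numbers of replicates 2 and 3 end in the same digits, which that of replicate 1 lacks. A term for replicate 1 gave 846 higher and 286 lower genes, and the fit of replicates 2 and 3 gave 404 and 71. The cause of these shifts was not tested. The replicate block gave 848 higher and 269 lower genes, with 6 described genes and 24 companions. Same-numbered libraries correlated by 0.53, 0.020 and 0.31 in their deviations, and of the controls only library 1 correlated best with its own number. These deviations are taken from the mean of each group and so constrain each other, and the check cannot exclude pairs. The main fit did not take the numbers as pairs. Without a filter on low counts the median log2 fold change of all genes was -0.10. Depth limits Batf3, and control levels of Irf8, Mgl2 and Cd209a, to a few reads.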

Other observations

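ILK-K5 library 1 differed from libraries 2 and 3 in opposite directions for genes that share a direction between genotypes. On the log2 scale, library 1 minus the mean of libraries 2 and 3 was 1.82 for Cd207, 1.64 for Flt3, 1.42 for Ikzf1, 1.34 for Csf2rb, 1.06 for Cd86 and 1.04 for Zeb2. It was -1.56 for Mgl2, -1.46 for Ccl17, -1.79 for the leukocyte gene Laptm5, -1.24 for Coro1a and -1.15 for the macrophage gene Lyz2. Irf8, Ly75 and Ptprc lay between, at 0.40, 0.39 and 0.43. Gene length, as implied by the ratio of normalized counts to FPKM, moved with this contrast. Spearman's rho across genes was 0.23 over the 479 genes called higher and 0.20 over all 16368 tested, in which all points share the same 3 libraries and genes are not independent. Exon bases of the annotation are another measure of length. By these the high genes had 1522 (Cd207), 6176 (Flt3), 5777 (Ikzf1), 7277 (Csf2rb), 3661 (Cd86) and 19942 (Zeb2). The low ones had 2094 (Mgl2), 514 (Ccl17), 3788 (Laptm5), 2783 (Coro1a) and 1316 (Lyz2). The part of length in these differences was not tested. These genes were picked after their values were seen.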
